A study of Mus musculus with 8 samples.

Results

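The mucins, trefoil factors and other goblet cell products examined here are 10 genes: the secreted mucin gene Muc2, the membrane mucin genes Muc1, Muc4 and Muc13, the trefoil factor genes Tff1, Tff2 and Tff3, the secreted products Clca3 and Fcgbp, and the chaperone gene Agr2. They were found as every probe of the deposited value table whose gene name in the array files was one of these symbols or an older alias, which gave 20 of 41174 probes and 10 of 27597 genes. The table covers mouse colon on 8 one-colour Agilent arrays, 1 array per sample, with 4 samples titled tumor and 4 titled normal. The tumors were labelled colon adenoma, from C57BL/6 mice of genotype Tcf4Het ApcHet, and the normals were labelled normal colon, from C57BL/6 mice of genotype TCF4WT ApcHet. Every animal thus carried the heterozygous Apc allele, named ApcMin in the growth protocol. Tissue and Tcf4 genotype cannot be told apart, since each tissue came with 1 genotype only. The protocol describes littermates and names the distal 2.5 cm of the colon as the source of RNA, and the titles call the samples adult. It speaks of tumors for both Tcf4 genotypes, whereas the labels call the samples of Tcf4 wild-type mice normal colon. RNA came from tissue and not from sorted cells, so fewer cells of a type and less RNA per cell cannot be told apart.

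Goblet cells are secretory cells of the intestinal lining. They store Muc2, a large polymer-forming glycoprotein that swells into the mucus gel over the colon, and release with it trefoil peptides, Clca3 and Fcgbp. Membrane mucins are different proteins, anchored in the apical surface of epithelial cells, where they form part of the glycocalyx. In the gut, Tff3 is the trefoil peptide of goblet cells, while Tff1 and Tff2 are best known from the stomach.

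Sequence upstream of the transcription start was held by RefSeq (build GRCm38.p6) for 6 of the 10 genes, at 7 starts. Those of Muc2, Fcgbp and Muc13 are shown, because these 3 genes had the most negative differences. Each is the 250 bases before the start, 5′ to 3′ on the + strand. Capitals mark short motifs searched on both strands. They were the TCF/LEF motif CTTTGA, the palindromic E-box CAGCTG, the motif CCACCC of KLF factors and the motif TGATAA of GATA factors.
Muc2, chr7:141690090-141690339: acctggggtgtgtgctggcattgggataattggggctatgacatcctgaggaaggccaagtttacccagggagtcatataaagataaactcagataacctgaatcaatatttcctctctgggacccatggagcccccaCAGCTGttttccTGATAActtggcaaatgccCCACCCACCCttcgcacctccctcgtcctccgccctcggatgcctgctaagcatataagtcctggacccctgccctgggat
Fcgbp, chr7:28070986-28071235: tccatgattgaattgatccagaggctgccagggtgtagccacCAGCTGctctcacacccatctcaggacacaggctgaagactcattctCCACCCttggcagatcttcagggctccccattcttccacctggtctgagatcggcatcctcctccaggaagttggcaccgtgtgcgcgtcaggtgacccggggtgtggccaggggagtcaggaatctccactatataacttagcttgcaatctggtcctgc
Muc13, first start, chr16:33793787-33794036: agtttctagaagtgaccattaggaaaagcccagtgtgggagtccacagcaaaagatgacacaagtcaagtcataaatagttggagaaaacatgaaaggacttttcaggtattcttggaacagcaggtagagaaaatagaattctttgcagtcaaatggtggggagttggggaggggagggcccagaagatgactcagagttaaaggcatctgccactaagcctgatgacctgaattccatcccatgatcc
Muc13, second start, chr16:33794239-33794488: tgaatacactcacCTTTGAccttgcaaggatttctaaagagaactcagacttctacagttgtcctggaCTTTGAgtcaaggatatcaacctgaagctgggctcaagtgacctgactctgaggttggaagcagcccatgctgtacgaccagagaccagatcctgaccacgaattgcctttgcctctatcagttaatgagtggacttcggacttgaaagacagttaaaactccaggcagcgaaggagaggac
The Muc2 window held 1 E-box at -112, 1 GATA motif at -100 and 2 KLF motifs that overlap each other, counted from the start. The Fcgbp window held 1 E-box at -208 and 1 KLF motif at -161. Neither window held CTTTGA, while the second Muc13 window held 2 copies of it and the first held none of the motifs. Of all 32851 starts in the RefSeq table, 13.8% held CTTTGA, 13.0% CAGCTG, 28.1% CCACCC and 7.9% TGATAA in a window of the same length. A match describes the letters only.

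Levels are the authors' log2 values, and a difference is the tumor mean minus the normal mean on that log2 scale. All 8 columns have the same median (8.51). A probe was kept where at least 4 of 8 values reached 5.59, a detection limit taken from probes that the scanner software called dim. Each gene is represented by its brightest kept probe. The number of arrays limits the precision, and the p-values measure the spread between these 8 samples.

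Some samples stand apart from their labels. Normal 3 had Pearson correlations over genes of 0.947 to 0.965 with tumors but only 0.872 to 0.941 with normals 1, 2 and 4. Its mean over 21 Wnt target genes, 12.68, lay between normals 1, 2 and 4 (10.46 to 10.72) and tumors (13.28 to 13.95). Normal 3 was also the highest of all 8 samples in small intestine genes (mean 11.68, others 9.52 to 11.00) and squamous genes (10.94, others 8.48 to 10.39). It was the lowest in B and plasma cell genes (9.26, others 10.36 to 11.00) and macrophage genes (10.96, others 11.54 to 12.80). In absorptive colonocyte genes it read 14.55, within the range of the other normals (14.46 to 14.73). Of the 8 columns, 4 could be traced to a scanner file, and 3 of these came from a file deposited under another sample: tumor 2 held the values filed under normal 4, normal 1 those under normal 2, and normal 2 those under normal 3. Samples are grouped by the title of their column throughout. Epithelial genes were abundant in all 8 samples: the mean of 16 pan-epithelial genes such as Epcam and Krt8 was 15.34 to 15.49 in the tumors and 15.69 to 15.99 in the normals. The mean of 12 pancreatic acinar genes, such as those of amylase and lipase, reached 14.49 in tumor 1 and 13.99 in normal 2. Tcf7l2, the current name of Tcf4, had a difference of -1.75 ± 0.24 (SE; adjusted p = 0.0145). No source used here says whether its probe lies in the altered stretch of the allele.

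None of the 10 genes passed the test between tumors and normals (limma, Benjamini-Hochberg adjustment over all 21637 genes tested, threshold 0.05). Over all genes 14.5% passed, 7% with a higher and 7.54% with a lower mean in tumors. All 10 genes entered the test, with 19 of the 20 probes, and none of the 19 passed when every kept probe was fitted, beside 13.4% of all kept probes. At an unadjusted p under 0.05 there were 3 (Muc13, Tff1 and Tff2), beside 32.4% of all genes. The difference was below 0 for 7 genes (Muc2, Muc4, Muc13, Tff3, Clca3, Fcgbp and Agr2), beside 42.1% of all genes, and above 0 for 3 (Muc1, Tff1 and Tff2). Tumors and normals overlapped for every one of the 10, whereas 23.8% of all genes had groups that did not overlap. The median difference of the 10 genes was -0.28, and that of all genes tested was 0.15. With each column centred on the pan-epithelial genes, 2 of the 10 passed (Tff1 and Tff2, both higher), beside 23.7% of all genes, 21.2% higher and 2.45% lower. In that setting the differences of Tff3, Clca3 and Agr2 were above 0. The centring shifted all differences up by 0.415. Of its 16 reference genes, 3 had themselves passed as lower in tumors without it (Gpa33, Cdx1 and Cdh17) and none as higher, with a median difference of -0.39. From the scanner files, each under its own sample label, none of the 10 and none of all genes passed in limma (432 of all genes at an unadjusted p under 0.05). Only some of these files match a column, and that of normal 4 matches tumor 2. In the fit of the columns, leaving out tumor 2, normal 1 or normal 2, each traced to a file of another sample, gave 0 of the 10. Over all genes only 379, 556 and 620 of 21637 passed in these fits.

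**Figure D1:**
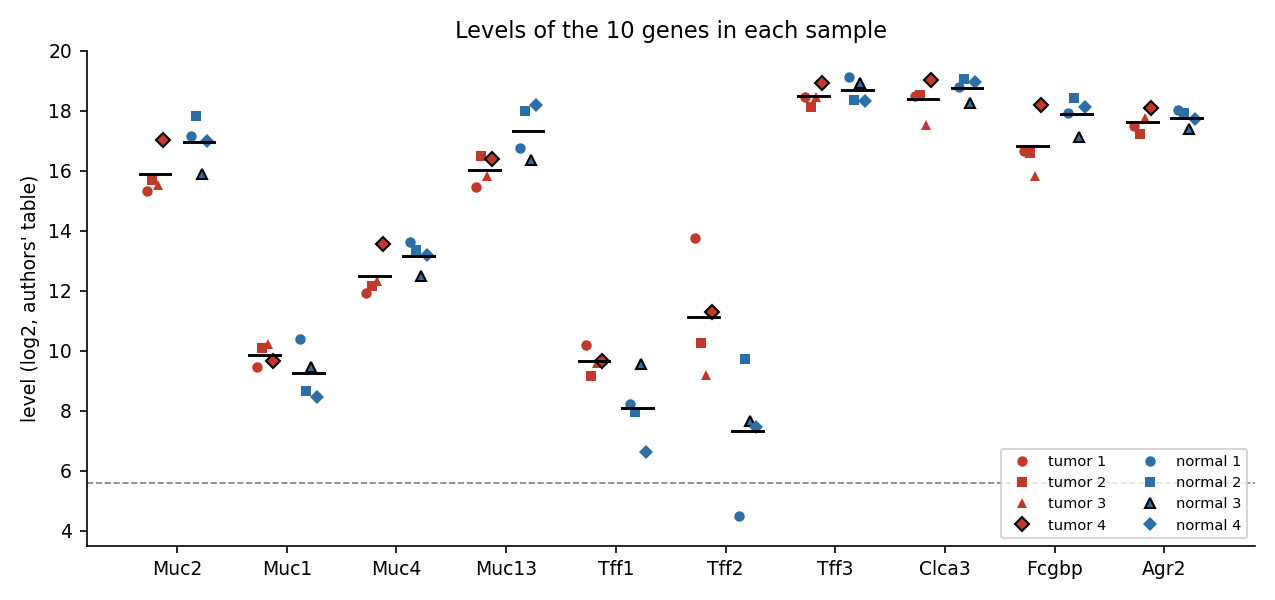
Level of each gene (y axis, log2, authors' table) in 4 tumors (red) and 4 normals (blue), with marker shape giving the sample number and a black edge on tumor 4 and normal 3. Horizontal bars are group means and the dashed line is the detection limit (5.59). The groups overlap in every gene, and heights of different genes are not comparable because each comes from another probe.

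Muc2 encodes the gel-forming mucin that makes up most of the colon's mucus. Its brightest probe (A_51_P128320, chr7:141565366-141565425, mm8) read 15.31, 15.69, 15.54 and 17.01 in tumors 1 to 4. It read 17.17, 17.81, 15.90 and 16.98 in normals 1 to 4. Tumors 1 to 3 lay below every normal, and tumor 4 lay above normals 3 and 4. The tumor mean was 15.89 ± 0.77 (SD, n = 4) against 16.97 ± 0.79 (SD, n = 4), a difference of -1.08 ± 0.50 (SE; 95% interval -2.24 to 0.08; adjusted p = 0.176). By sample number the differences were -1.87, -2.12, -0.36 and 0.03. The value for number 1 compares 2 columns traced to arrays of one slide, and that for number 2 compares 2 columns traced to the other slide. Without normal 3 the difference was -1.43 (adjusted p = 0.0314), in a fit where 51.5% of all genes passed.

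The other 3 Muc2 probes lie 12.7, 16.9 and 20.8 kb upstream of this one. Their differences were 0.00, -0.40 and -0.61, with adjusted p from 0.325 to 0.997 over all kept probes. In each of them tumor 4 was the highest of all 8 samples. The downstream probe minus the mean of the 3 upstream probes was 6.69 ± 0.18 (SD, n = 4) in tumors and 7.44 ± 0.85 (SD, n = 4) in normals, a difference of -0.74 (exact two-sided permutation p = 0.2).

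Muc13, a membrane mucin abundant on the surface of colon epithelium, had the most negative difference of the 10 genes. Its probe (A_51_P263033, chr16:33739124-33739183, mm8) read 15.45, 16.48, 15.81 and 16.39 in tumors 1 to 4. The normals read 16.76, 18.00, 16.37 and 18.19. The ranges overlapped only through normal 3, which lay below tumors 2 and 4. The means were 16.03 ± 0.49 (SD, n = 4) in tumors and 17.33 ± 0.90 (SD, n = 4) in normals. The difference was -1.30 ± 0.46 (SE; 95% interval -2.38 to -0.22), or 2.46-fold, with an adjusted p of 0.101. Each of the 4 same-numbered tumors lay below its normal, by -1.31, -1.52, -0.56 and -1.80. With the sample number as a replicate block the adjusted p was 0.0475, and Muc13 was then the 1 of the 10 genes that passed. Over all genes 8.69% passed in that fit, 3.61% with a higher and 5.08% with a lower mean in tumors. Without normal 3 the difference was -1.62 (adjusted p = 0.0204), in a fit where 51.5% of all genes passed.

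Muc4 is a large membrane mucin that also binds the receptor ErbB2. Its brightest probe (A_51_P392277, chr16:32702057-32702112, mm8) read 11.93, 12.17, 12.32 and 13.55 in tumors 1 to 4 and 13.61, 13.36, 12.50 and 13.20 in normals 1 to 4. The pattern was that of Muc2: tumors 1 to 3 lay below every normal and tumor 4 near the top. The tumor mean of 12.49 ± 0.72 (SD, n = 4) stood against 13.17 ± 0.48 (SD, n = 4), a difference of -0.67 ± 0.40 (SE; adjusted p = 0.233). Without tumor 4 it was -1.02 (adjusted p = 0.0733).

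The Muc4 probes did not all point the same way. Besides the brightest one, 3 probes within 3.5 kb of it had differences of -0.79, -0.76 and -1.02 (adjusted p = 0.174 to 0.223 over all kept probes). A probe 27.1 kb upstream (chr16:32674938-32674997) read 9.93, 9.20, 9.90 and 9.59 in the tumors and 9.14, 8.64, 10.02 and 8.45 in the normals. Its difference was 0.59 ± 0.36 (SE; adjusted p = 0.244), and normal 3 was its highest sample. The mean of the 4 downstream probes minus the upstream probe was 0.15, 1.22, 0.45 and 2.19 in tumors 1 to 4 and 2.80, 3.16, 0.64 and 3.04 in normals 1 to 4. Normals 1, 2 and 4 lay above all tumors, and normal 3 lay among the tumors. This contrast differed by -1.40 between the groups (exact two-sided permutation p = 0.0857, 0.171 adjusted over the 2 genes compared so, and 0.0286 is the smallest p that 70 regroupings allow). The same-numbered differences of this contrast were -2.65, -1.94, -0.19 and -0.85, all below 0 (exact two-sided sign-flip permutation over the pairs, p = 0.125, the smallest that 4 pairs allow). The contrast and both tests were chosen after the probe values were seen. The labelling was primed with oligo dT, per the labels' protocols, and the part of distance from the primed end in these values was not tested. A sixth Muc4 probe, without coordinates in the files, was below the limit in all 8 samples and was left out.

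**Figure D2:**
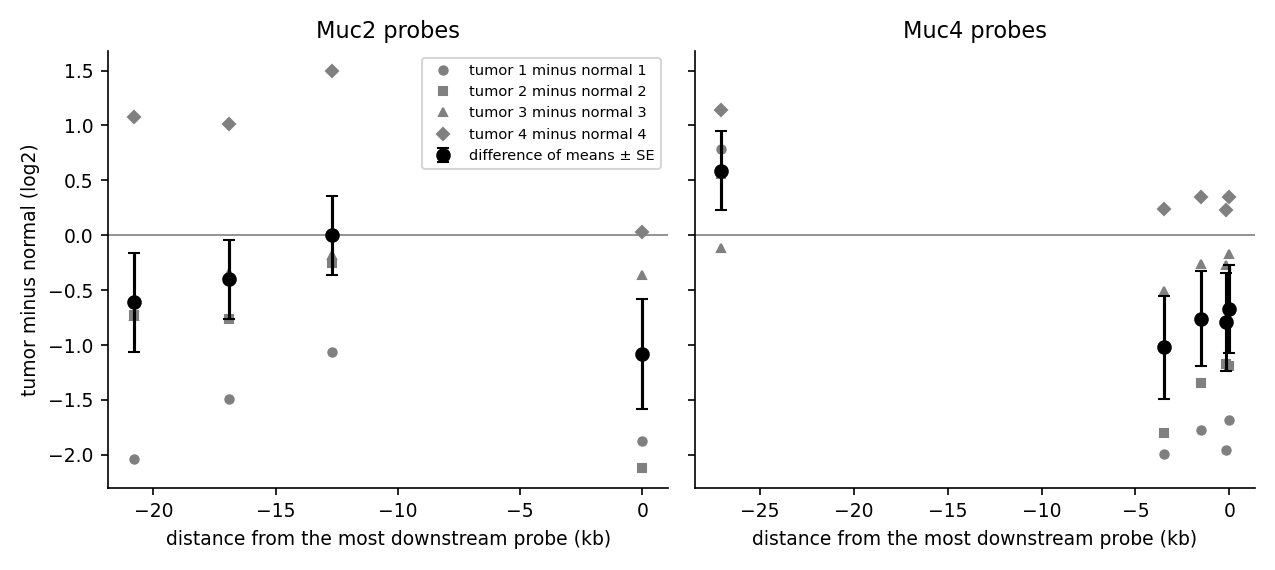
Tumor minus normal difference (y axis, log2) of each kept Muc2 and Muc4 probe against its distance in kb from the most downstream probe (x axis). Black points are differences of means with SE bars and grey markers are the 4 same-numbered sample differences. The Muc4 probe at -27.1 kb lies above 0 (0.59), while the 4 downstream ones lie between -1.02 and -0.67.

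Muc1 is a membrane mucin of most glandular epithelia, usually at low level in the colon. Its probe (A_52_P58208, chr3:89317108-89317265, mm8) read 9.45, 10.09, 10.21 and 9.67 in tumors 1 to 4 and 10.40, 8.67, 9.47 and 8.44 in normals 1 to 4. Normal 1 was the highest of all 8 samples, and normals 2 and 4 were below every tumor. The means were 9.85 ± 0.35 and 9.24 ± 0.89 (SD, n = 4 each), with a difference of 0.61 ± 0.43 (SE; 95% interval -0.40 to 1.62; adjusted p = 0.304). Without normal 1 it was 0.995 and without normal 4 it was 0.344. A second Muc1 probe had a difference of 0.43 (adjusted p = 0.416).

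The 3 trefoil factor genes lie together on chromosome 17, with their probes within 36.3 kb (mm8). Trefoil factors are small secreted peptides that bind mucus and promote the closing of wounds in the epithelium. Tff3 (A_51_P456208, chr17:30852346-30852405), the goblet cell member, read 18.45, 18.13, 18.45 and 18.93 in tumors 1 to 4. It read 19.11, 18.37, 18.91 and 18.32 in normals 1 to 4. The groups were intermingled. The difference was -0.19 ± 0.25 (SE; adjusted p = 0.574), with an interval (-0.77 to 0.39) that leaves out a change of 1 log2 unit in either direction. With single samples left out it ran from -0.334 (without tumor 4) to -0.044 (without normal 1).

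Tff1 (A_51_P504884, chr17:30888538-30888597), a product of gastric surface mucous cells, read 10.20, 9.16, 9.58 and 9.64 in tumors 1 to 4. The normals read 8.21, 7.95, 9.55 and 6.62. Normal 3 lay among the tumors, and the other 3 normals were below every tumor. The mean was 9.64 ± 0.43 (SD, n = 4) in tumors and 8.08 ± 1.20 (SD, n = 4) in normals, a difference of 1.56 ± 0.57 (SE; 95% interval 0.23 to 2.90; adjusted p = 0.107). Without normal 3 the difference was 2.05 (adjusted p = 0.0117), in a fit where 51.5% of all genes passed. The Tff1 probe was well above background in all 8 scanner files. A like order of samples was seen in olfactory receptor genes, which the gut is not known for and whose median lay below 8.51 in each column. The median over 621 of them was 7.85, 7.41, 7.98 and 7.53 in tumors 1 to 4 and 7.25, 5.72, 8.12 and 5.85 in normals 1 to 4, and the median of their differences was 1.11. These 621 had passed the filter on dim probes, which a gene can pass through the tumors alone. Over all 958 olfactory receptor probes, unfiltered, the medians were 6.92, 6.54, 7.03 and 6.64 in tumors 1 to 4. They were 6.48, 4.94, 7.13 and 5.06 in normals 1 to 4. The part of whatever moves the olfactory receptor probes in the Tff1 values was not tested.

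Tff2 (A_51_P480602, chr17:30869323-30870147), a product of gastric mucous neck cells and duodenal glands, had the most positive difference of the 10 genes. It read 13.75, 10.25, 9.18 and 11.29 in tumors 1 to 4 and 4.49, 9.73, 7.65 and 7.46 in normals 1 to 4. Only normal 1 was below the detection limit, and in that column the 95th percentile of dim probes was 7.70. Normals 3 and 4 lay above the limit but also below 7.70. Their columns were not traced to a file, so their own dim levels are not known. The probe was well above background in 6 of the 8 scanner files and in 3 of the 4 traced ones. Tumor 3 lay below normal 2, and the other 3 tumors lay above all normals. The tumor mean was 11.12 ± 1.96 (SD, n = 4) and the normal mean 7.33 ± 2.16 (SD, n = 4). The difference of the values as deposited was 3.78 ± 1.29 (SE; 95% interval 0.78 to 6.79; adjusted p = 0.0897), and its size rests in part on the value of normal 1. With normal 1 set at that percentile, a setting chosen after the data were seen, the difference was 2.98 ± 0.99 (SE; adjusted p = 0.0844), or 7.89-fold, and with normal 1 left out it was 2.835. By sample number the differences were 0.51, 1.53 and 3.82 for numbers 2 to 4, and that of number 1 was at least 6.05, taken against the same percentile. The mean of 12 pancreatic acinar genes was 14.49, 14.15, 13.50 and 12.29 in tumors 1 to 4 and 8.76, 13.99, 9.44 and 11.88 in normals 1 to 4. Normals 1 and 3 were thus low in these genes and normal 2 high, as it was in Tff2. Other samples were ordered differently. Normal 4 lay above normal 3 in the acinar genes but below it in Tff2. Tumor 4 was the lowest tumor in the acinar genes, whereas tumor 3 was the lowest in Tff2. Of those 12 genes none passed the test with a higher mean in tumors and 1 passed with a lower one (none with the replicate block), and the median of their differences was 3.14. The part of acinar RNA in the Tff2 values was not tested. Of 13 gastric genes tested, 2 rose, Aqp5 by 2.83 ± 0.37 (SE; adjusted p = 0.0139) and Gkn3 by 2.89 ± 0.78 (SE; adjusted p = 0.0476), and Sult1c2 fell by 1.56 on the log2 scale (adjusted p = 0.0278, a call lost with the replicate block at 0.0557). Their median difference was 0.91.

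**Figure D3:**
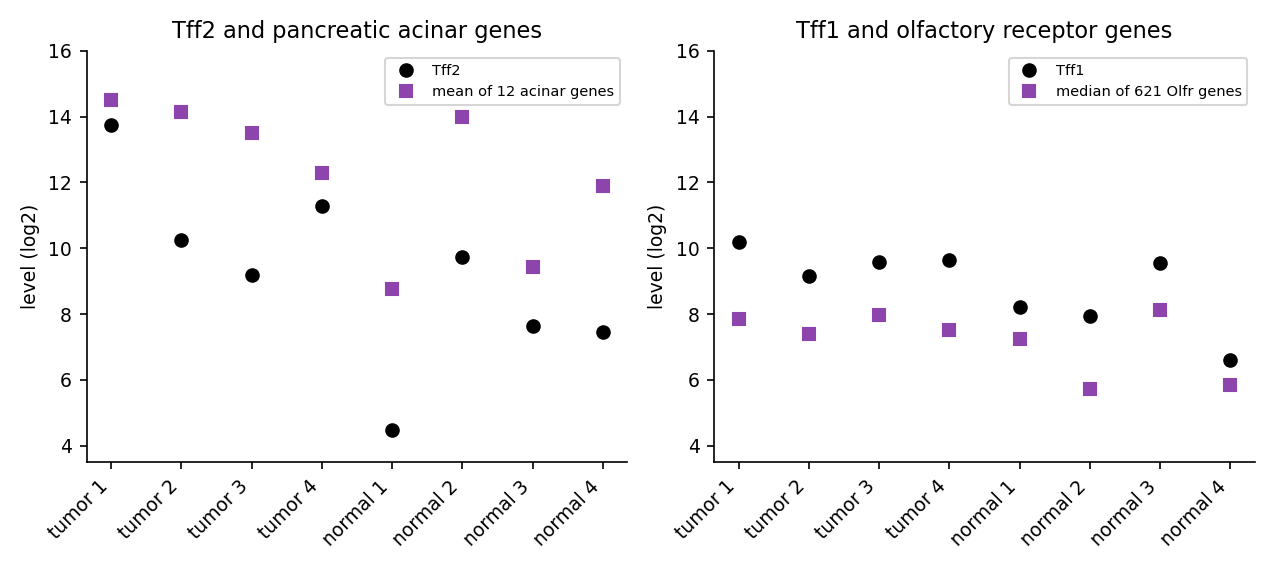
Levels (y axis, log2) in each of the 8 samples (x axis) of Tff2 with the mean of 12 pancreatic acinar genes (left) and of Tff1 with the median of 621 olfactory receptor genes (right). Black circles are the trefoil gene and purple squares the gene list. Normal 1 is the lowest sample on the left for both Tff2 (4.49) and the list (8.76), while the lowest tumor is tumor 3 for Tff2 (9.18) and tumor 4 for the list (12.29). Normal 3 is the highest normal on the right for both Tff1 (9.55) and the list (8.12).

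Clca3, a secreted protein of goblet cell mucus, carries the name Clca1 in current annotation. Its probe (A_51_P422751, chr3:144941980-144942039, mm8) was matched by the transcript accession in the array files, since the array uses the name Clca1 for another gene of the family, now Clca3a1. It read 18.48, 18.53, 17.54 and 19.02 in tumors 1 to 4 and 18.79, 19.07, 18.26 and 18.97 in normals 1 to 4. Tumor 3 was below every normal, and tumor 4 was above 3 of the 4. The means were 18.39 ± 0.62 and 18.77 ± 0.36 (SD, n = 4 each), a difference of -0.38 ± 0.33 (SE; adjusted p = 0.400). It was -0.091 without tumor 3 and -0.586 without tumor 4. The relatives Clca3a1, Clca3a2 and Clca3b, had differences of -0.65, -0.67 and -1.17 (adjusted p = 0.259 to 0.404).

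Fcgbp is a mucus protein that associates with Muc2. Its brightest probe (A_51_P380078, chr7:27829258-27829317, mm8) read 16.66, 16.59, 15.84 and 18.20 in tumors 1 to 4 and 17.94, 18.41, 17.11 and 18.14 in normals 1 to 4. Again tumors 1 to 3 lay below every normal, and tumor 4 lay above 3 normals. The tumor mean was 16.82 ± 0.99 (SD, n = 4) and the normal mean 17.90 ± 0.56 (SD, n = 4), a difference of -1.08 ± 0.52 (SE; 95% interval -2.27 to 0.12; adjusted p = 0.185). The second Fcgbp probe had a difference of -1.25 (adjusted p = 0.180 over all kept probes).

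Agr2, a protein disulfide isomerase of the endoplasmic reticulum needed for making Muc2, read 17.49, 17.22, 17.75 and 18.10 in tumors 1 to 4 and 18.01, 17.91, 17.40 and 17.74 in normals 1 to 4 (A_51_P209122, chr12:36514185-36514244, mm8). The groups were intermingled, with tumor 4 the highest sample. The difference was -0.13 ± 0.23 (SE; 95% interval -0.66 to 0.40; adjusted p = 0.683), and with single samples left out it ran from -0.279 (without tumor 4) to 0.012 (without tumor 2). Its tumor and normal means, 17.64 ± 0.37 and 17.77 ± 0.27 (SD, n = 4 each), are the closest pair among the 10 genes.

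**Figure D4:**
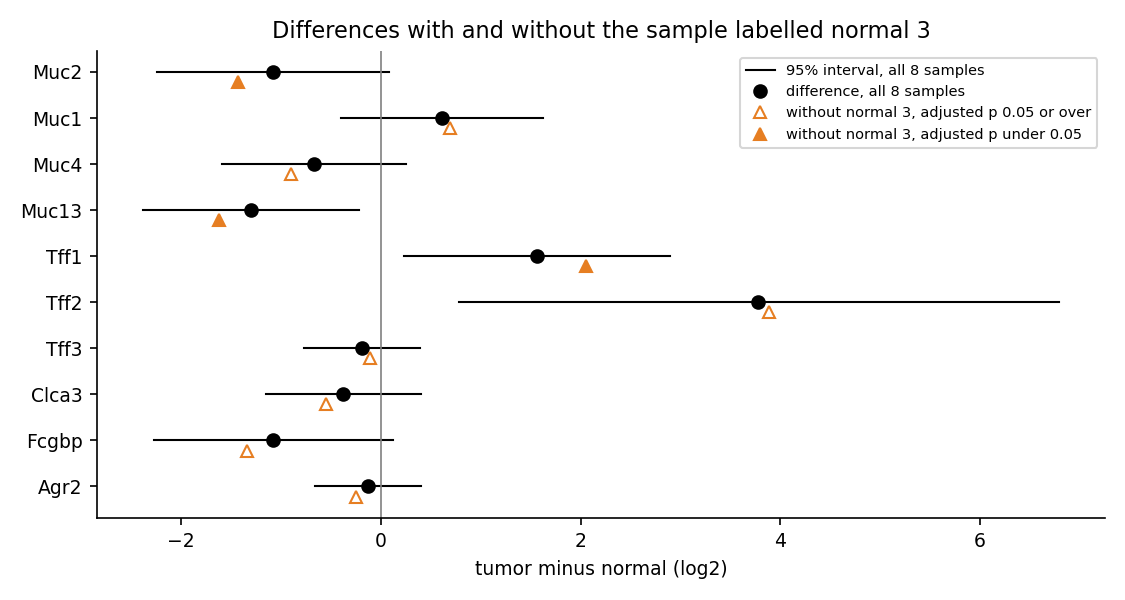
Tumor minus normal difference (x axis, log2) of the 10 genes, as black points with 95% intervals over all 8 samples and as orange triangles without normal 3, filled where the adjusted p was under 0.05. All 10 genes miss the threshold with all samples. Without normal 3 the triangles of Muc2 (-1.43), Muc13 (-1.62) and Tff1 (2.05) are filled, in a fit where 51.5% of all genes passed.

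Across the 10 genes, a few samples held the same place repeatedly. Tumor 4 was the highest tumor for 6 genes (Muc2, Muc4, Tff3, Clca3, Fcgbp and Agr2), and normal 3 was the lowest normal for 6 (Muc2, Muc4, Muc13, Clca3, Fcgbp and Agr2). Without normal 3, 3 of the 10 genes passed the test, 1 higher and 2 lower in tumors, beside 51.5% of all genes, 31.7% higher and 19.8% lower. The mean of 11 smooth muscle genes had both samples in the same places, with 14.82 in tumor 4 against 13.87 to 14.24 in the other tumors and 13.44 in normal 3 against 14.37 to 15.63 in the rest of the normals. Of the lists counted below, means of other goblet cell genes (14.21 in tumor 4, 13.6 in normal 3), secretory lineage factors (12.79 and 12.8) and glycosylation genes (12.01 and 12.06) did likewise. The mean of other mucins did not. That of folding genes had normal 3 as the lowest normal (13.87, others 13.89 to 14.08), but tumor 4 (14.17) was not the highest tumor. The part of tissue makeup in the 10 genes was not tested. After each group's mean was removed, the genes most like Muc2 over the 8 columns were Rgs8 (Pearson r = 0.979), Boc (0.974), Arfgef3 (0.971), Cacna1b (0.968), Ltbp2 (0.968), Gprin3 (0.961), Wnt2 (0.959), Ptprn (0.958), Gxylt1 (0.955) and Nfatc1 (0.954). Of the other 9 genes, Muc4 came closest (0.909, rank 79), then Fcgbp (0.880, rank 201), Agr2 (0.795), Clca3 (0.727) and Muc13 (0.650). Tff3 (0.106) and Tff2 (0.062) were near 0, and Muc1 (-0.199) and Tff1 (-0.445) ran the other way. These correlations share the 8 columns and their normalisation and are a description.

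Related genes were counted from 5 lists with 107 genes tested, of which 10 had a higher and 17 a lower mean in tumors past the threshold, with a median difference of -0.33. Over all genes 7% were higher, 7.54% were lower and the median was 0.15. The count depended on the samples, as did that over all genes. It was 12 without tumor 1, 3 without tumor 2, 0 without tumor 3 and 16 without tumor 4. It was 5 without normal 1, 4 without normal 2, 54 without normal 3, where 51.5% of all genes passed, and 2 without normal 4. Of all 21637 genes, 855, 379, 21 and 1863 passed without tumors 1 to 4, and 556, 620, 11136 and 160 without normals 1 to 4. At 0 calls without tumor 3, 42 list genes had an unadjusted p under 0.05 in limma, beside 5189 of all genes. With the replicate block 1 list gene was higher and 11 were lower, beside 3.61% and 5.08% of all genes. Genes of absorptive colonocytes, the other main cell type of the colon lining, moved beside these lists: 10 of 16 tested fell and none rose (11 fell with the block), with a median difference of -1.92, and their mean was 12.06 to 13.18 in tumors and 14.46 to 14.73 in normals. The part of cell makeup in the lists was not tested.

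**Figure D5:**
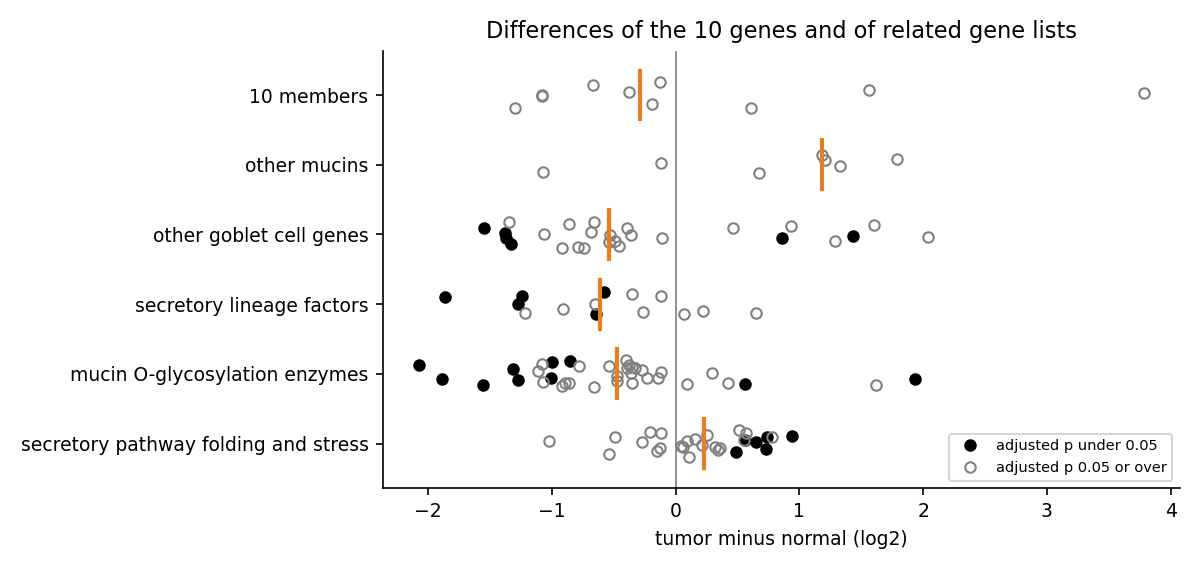
Tumor minus normal difference (x axis, log2) of the 10 genes and of the genes tested in 5 related lists (rows), filled where the adjusted p was under 0.05, with the list median as an orange bar. The 10 genes hold no filled point, while 8 glycosylation genes are filled below 0 and 6 folding genes above 0.

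Of 7 other mucin genes tested, none passed. Their median difference was 1.18, beside 1.11 for the 621 olfactory receptor genes that passed the filter. The mean of the 7 was 9.78 to 10.40 in tumors and 9.62, 8.62, 10.55 and 9.14 in normals 1 to 4, and as in the olfactory receptor genes normal 3 was the highest of all 8 samples and normal 2 the lowest. The part of whatever moves the olfactory receptor probes in this list was not tested. Muc3, the main membrane mucin of the mouse gut, read 17.97, 17.27, 17.31 and 18.49 in tumors 1 to 4 and 18.82, 18.86, 18.53 and 19.12 in normals 1 to 4, so that every tumor lay below every normal. Its difference was -1.07 ± 0.30 (SE; adjusted p = 0.0511, 0.0489 with the replicate block). Muc5ac, the gastric surface mucin, had a difference of 1.33 ± 0.68 (SE; adjusted p = 0.199), with normal 3 at 10.65 among the tumors, as in Tff1.

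Of 26 other goblet cell genes tested, 4 fell and 2 rose (median -0.54). Those that fell were Bcas1 (-1.55, adjusted p = 0.0226), Nxpe4 (-1.37, adjusted p = 0.0248), Hepacam2 (-1.33, adjusted p = 0.0432) and the chloride channel gene Best2 (-1.38, adjusted p = 0.0465). Those that rose were Ccl9 (1.43, adjusted p = 0.0215), a chemokine also made by myeloid cells, and Tmsb10 (0.86, adjusted p = 0.024), an actin-binding peptide of many cell types. Myeloid genes moved beside these 2 genes. Of 21 neutrophil and acute inflammation genes 19 rose (mean 11.26 to 12.93 in tumors and 6.93 to 9.78 in normals), and of 15 macrophage genes 9 rose and 1 fell (mean 12.64 to 12.80 and 10.96 to 12.11). Their part was not tested. With the replicate block none of the 26 passed. Zg16, a lectin of goblet cell granules, had a difference of -0.68 (adjusted p = 0.104), Spink4 of 0.93 (adjusted p = 0.189) and Retnlb, an antimicrobial peptide, of 0.46 (adjusted p = 0.823).

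Of 14 transcription factors of the secretory and intestinal lineages, 5 fell and none rose (median -0.61). Atoh1, the factor that commits progenitors to the secretory lineage, read 8.39, 8.05, 8.08 and 9.06 in tumors 1 to 4 and 10.85, 10.74, 8.79 and 10.64 in normals 1 to 4. Normal 3 lay below tumor 4, and the other 3 normals lay above every tumor. The difference was -1.86 ± 0.49 (SE; adjusted p = 0.045, 0.052 with the replicate block). Klf4, a factor of goblet cell maturation, fell by 1.27 on the log2 scale (adjusted p = 0.0199, 0.0404 with the block), with every tumor (16.45 to 17.16) below every normal (17.74 to 18.29). Hnf4a, a factor of intestinal epithelial identity, fell by 1.24 (adjusted p = 0.0215; 0.0467 when blocked). The Notch target Hes1 fell by 0.64 (adjusted p = 0.0345; 0.067 when blocked). Spdef, which drives goblet cell differentiation downstream of Atoh1, had a difference of 0.07 ± 0.36 (SE; adjusted p = 0.89), and Xbp1 of -0.12 ± 0.19 (SE; adjusted p = 0.643).

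Mucins carry dense O-linked sugars, and 36 genes listed for the synthesis and sulfation of sugar chains were tested. The list is not limited to genes that act on mucins. Of these, 8 fell and 2 rose (median -0.47), and 8 fell and 1 rose with the replicate block. Slc26a2, a sulfate transporter, read 13.37, 11.69, 12.31 and 12.73 in tumors 1 to 4 and 14.64, 14.45, 14.62 and 14.68 in normals 1 to 4, with no overlap. Its difference was -2.07 ± 0.33 (SE; adjusted p = 0.0167, 0.0375 with the block). The sulfotransferase genes Gal3st2 (-1.89, adjusted p = 0.00976) and Gal3st1 (-1.31, adjusted p = 0.0245) and the N-acetylgalactosaminyltransferase gene B4galnt3 (-0.85, adjusted p = 0.0192) also fell. The sialyltransferase gene St3gal1 read 12.13, 12.64, 12.48 and 12.10 in tumors 1 to 4 and 10.69, 10.59, 10.50 and 9.85 in normals 1 to 4, again with no overlap. It rose by 1.93 ± 0.23 (SE; adjusted p = 0.0123, 0.0361 with the block). Galnt2, which starts O-glycans, rose by 0.56 (adjusted p = 0.033, 0.0573 with the block). C1galt1, the core 1 synthase gene, had a difference of -0.54 (adjusted p = 0.0781), Gcnt3 of -0.66 (adjusted p = 0.153) and St6galnac1 of 1.62 (adjusted p = 0.227). B3gnt6 was not matched to a probe and is not analysed here.

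Of 28 genes of protein folding and stress in the secretory pathway, to which Agr2 also belongs, 6 rose and none fell (median 0.23), and none passed with the replicate block. The endoplasmic reticulum genes Pdia4 (0.65, adjusted p = 0.0208), Sdf2l1 (0.94, adjusted p = 0.0239), Sec61b (0.56, adjusted p = 0.03) and Manf (0.73, adjusted p = 0.0387) had the lowest p. Ern2, the stress sensor of mucus-making epithelia, read 10.96, 10.42, 11.08 and 11.44 in tumors 1 to 4 and 12.27, 12.34, 11.37 and 12.00 in normals 1 to 4. Normal 3 lay below tumor 4. Its difference was -1.02 ± 0.29 (SE; adjusted p = 0.0537).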

How the data were processed

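The deposited value table holds 1 log2 column per sample, quantile-normalised by the authors as its equal medians (8.51) and 75th percentiles (11.40) show; its scale was read from the files. The other deposited files give background-subtracted spot intensity and mm8 probe positions, from Agilent Feature Extraction 9.5.1.1 per the file headers (10.1.1.1 in the submitters' processing notes). Probes were named through RefSeq by accession (24375), symbol (6301) or synonym (2426), and 8072 kept the name in the files. Of 41174 probes, 31870 with at least 4 of 8 values at or above 5.59 were kept, and each gene was represented by its brightest one. To set this limit, the 95th percentile of dim probes (not well above background) was taken in each of the 4 columns traced to a file, and the median of these 4 was used. The comparison used limma 3.58.1 (R 4.3.3; lmFit, eBayes, Benjamini-Hochberg adjustment over all genes; other probes of a gene were fitted and adjusted over all kept probes), tested on simulated data. Intervals of single genes are not adjusted.

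Same-numbered tumors and normals deviated together from their group means (correlations 0.238, 0.356, 0.534 and 0.362, each over 0.1), and by that criterion the number, which comes from the titles, was taken to pair the samples. Different-numbered samples ran from -0.507 to 0.379, and tumors 1 and 4 correlated more with normals 3 (0.279) and 2 (0.379) than with their own number, so the pairing is a hint from the data. By the labelled genotypes, a same-numbered tumor and normal came from different mice. Both columns of number 1 were traced to slide 1 and both of number 2 to slide 2, while those of numbers 3 and 4 were not traced. The part of the slide in these correlations was not tested. A fit with the number as a block was an alternative. Other alternatives left out each sample and changed the filter, the probe choice, the centring, the variance model and the values used (scanner files). The 10 genes and the lists were chosen with earlier results of these data known. Beyond the 10 genes, the text names up to 4 genes per list and direction with the lowest adjusted p, 12 goblet cell genes whatever their value, the 10 genes most like Muc2, and genes needed to describe a sample; Muc3, Muc5ac, Tcf7l2, the Clca relatives and the gastric genes were named after their values were seen.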

Additional observations from a re-analysis of the deposited data

Results flagged for a closer look

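Of 38 groups of 4 samples tested with Dixon's criterion, 1 held a sample far from the others, while chance flags about 1 in 20 groups. Tumor 4 read 10.54 on the Muc4 probe 3.5 kb upstream of the brightest one, against 8.79 to 9.07 in the other tumors (ratio of gap to range 0.843). It was also the highest tumor on the other 3 downstream Muc4 probes.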

How the results depend on the processing

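With 21 alternatives (22 for Tff2), differences of Muc2, Muc4, Muc13, Tff1 and Tff2 kept their sign in all, but their sizes varied. Muc2 ran from -1.891 to -0.254, Muc4 from -1.472 to -0.124 and Muc13 from -1.617 to -0.341. Tff1 ran from 1.002 to 2.146 and Tff2 from 0.146 to 4.58. The values nearest to 0 came from scanner files as filed. With the mean of kept probes Muc2 was -0.52. Centring on the 75th percentile or median shifted all differences by 0 or -0.001, too little to turn these signs. The count of the 10 genes that passed was 0 in limma (3 at an unadjusted p under 0.05), 0 to 3 with single samples left out, 1 with the replicate block and 2 when columns were centred on pan-epithelial genes, which shifted all differences by 0.415. The replicate block changed the call of no other of the 10 genes than Muc13. Over all genes the count of 3147 became 1881 with the block, 21 to 11136 with single samples left out (lowest without tumor 3, highest without normal 3) and 5125 with pan-epithelial centring, which called 4594 higher and 531 lower against 1515 and 1632. It was 0 in limma from scanner files as filed (432 genes at an unadjusted p under 0.05), with the slide as a block (323), with normexp and quantile normalisation (512) and from the 4 traced files (4115). The files as filed are in part other arrays than the columns. Those of normal 1 and tumors 2, 3 and 4 match no column, and that of normal 4 holds the values of tumor 2. The 4 traced files compare only tumors 1 and 2 with normals 1 and 2, under their column's label. The pathway count of 27 became 12 with the block, 0 to 54 with samples left out and 0 from those 4 scanner settings (3, 2, 3 and 28 at an unadjusted p under 0.05). Signs turned for Agr2 without tumor 2 (0.012; -0.279 to 0.012 over the samples left out), and with pan-epithelial centring for Tff3 (0.228), Clca3 (0.039) and Agr2 (0.289), where Tff1 (1.98, adjusted p = 0.0453) and Tff2 (4.20, adjusted p = 0.0455) passed. From scanner files as filed, with or without the slide block, Muc1 turned to -1.331 and Tff3 to 0.262, and Fcgbp stood at 0.000; with normexp Muc1 was -1.769 and Tff3 0.104. The cause was not tested. No member probe was saturated in any file.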
